A study of Mus musculus with 16 samples.

Results

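Somatostatin interneurons were chosen by measured values, the UMI counts of 6 genes, among single-nucleus RNA profiles of the mouse hippocampus. A nucleus was kept when it had at least 3 unique molecular identifiers (UMIs, each 1 captured RNA molecule) of the GABA-synthesis genes Gad1 and Gad2 together and at least 3 UMIs of Sst. It could hold at most 1 UMI each of Slc17a7, the vesicular glutamate transporter of excitatory neurons, and of Vip and Lamp5, which mark other interneurons. The rule kept 1220 of 147873 nuclei, and 1220 of the 7949 nuclei that met its conditions on Gad1, Gad2 and Slc17a7, called inhibitory nuclei here. The hippocampi came from 16 female mice aged 9 months. They fell into 4 groups of 4 mice. Ch25h+/+ mice were either Tau+ or Tau-, and so were mice labelled Ch25h-/-. Ch25h encodes cholesterol 25-hydroxylase, an interferon-inducible enzyme that makes 25-hydroxycholesterol, and the title of the study places it between STING, interferon and tau pathology. The tau line, its promoter and the way the Ch25h allele was made are not given in the sources used here. The comparisons asked what tau changed in these neurons in each Ch25h genotype, and what the loss of Ch25h changed in each tau state.

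Somatostatin interneurons are GABAergic cells that arise from the medial ganglionic eminence (MGE) under the transcription factors Lhx6, Satb1 and Sox6, and that release the peptide somatostatin beside GABA. In the hippocampus their best known form is the oriens-lacunosum-moleculare cell, which is driven by local pyramidal neurons and inhibits the distal dendrites where entorhinal input arrives. Elfn1, a postsynaptic protein that shapes the excitatory input of these cells, is typical of them. Other somatostatin cells project over long distances and make neuronal nitric oxide synthase (Nos1). Transcription of Sst is a classical example of control by cyclic AMP, through the factor CREB bound to a palindromic element just upstream of the gene.

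The stretches before the transcription starts of Sst and of Ch25h, the gene whose genotypes the study compares, are shown because both hold that element and because the pooled level of Ch25h RNA was higher in these nuclei than in other inhibitory nuclei. Each run is the 100 bases upstream of the RefSeq start, 5′ to 3′ on the gene's strand (GRCm38.p6), with TGACGTCA in capitals. The Sst stretch is chr16:23890845-23890944, minus strand, and its element begins 48 bases before the start. The Ch25h stretch is chr19:34475149-34475248, minus strand, and its element begins 61 bases before the start.
Sst: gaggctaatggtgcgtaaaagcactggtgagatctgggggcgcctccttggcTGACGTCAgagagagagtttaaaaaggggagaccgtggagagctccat
Ch25h: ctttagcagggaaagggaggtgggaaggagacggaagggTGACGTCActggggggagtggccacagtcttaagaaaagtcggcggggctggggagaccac
TGACGTCA reads the same on both strands. It occurred in 588 of 32851 RefSeq promoter windows of 300 bases (1.79%), each running from 250 bases before to 50 after a start. A match is a description of these letters and says nothing of binding.

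The 16 libraries held 51270831 to 84870650 UMIs and 8130 to 11654 nuclei each. Somatostatin nuclei numbered 55 to 115 per library (median 71), with 503316 to 1226862 UMIs in all per library and a median of 7348 to 12917 UMIs per nucleus. By group there were 299 in Ch25h+/+ Tau+, 290 in Ch25h+/+ Tau-, 272 in Ch25h-/- Tau+ and 359 in Ch25h-/- Tau-. No barcode was a somatostatin nucleus in more than 1 library, and 45 of the 1220 had a barcode that was a nucleus elsewhere, where any pair of libraries shared 10 to 40 nucleus barcodes. Scrublet, a doublet caller, marked 85 of the 1220. Within groups the gene counts of any 2 libraries differed by more than sampling noise (chi-square per degree of freedom 1.68 to 3.3 over 24 pairs). Replicates 1 and 2 of every group stood apart from replicates 3 and 4. The labels give no batch, and an earlier analysis of these data showed this split. In the somatostatin nuclei 450 of 9608 genes were called between the replicate pairs (edgeR, adjusted p under 0.05), among them Dnaja2, a heat-shock co-chaperone, at 98.3 to 167 CPM in replicates 1 and 2 and 18.4 to 41.3 CPM in replicates 3 and 4. CPM are UMIs per 1000000 UMIs of the nuclei named. They are not divided by gene length, so levels are compared between nuclei for the same gene and never between genes. Values per library carry edgeR's TMM scaling unless said to be pooled.

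The values that chose the nuclei are given first, as a description. Sst pooled over the 1220 nuclei stood at 782 CPM, with 581 CPM in the lowest library and 977 CPM in the highest. Gad2 stood at 361 CPM and Gad1 at 237 CPM. Of the nuclei kept, 220 sat on the Sst limit with 3 UMIs, and 301 nuclei that met every other condition had 2 Sst UMIs and were left out. Crhbp, the binding protein of corticotropin-releasing hormone, read 51 CPM in those just inside and 58 CPM in those just outside, and Sox6 read 349 and 365 CPM. At the limit on Gad1 and Gad2 together, 237 nuclei had 3 UMIs, and 244 that met every other condition had 2. Crhbp read 95.1 CPM just inside that limit and 99.2 CPM just outside, Sox6 486 and 545 CPM, and Lhx6 78.3 and 64.4 CPM. The nuclei just outside the limits on Slc17a7, Vip and Lamp5 numbered 23, 0 and 1.

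Genes outside the rule that are known from these neurons were detected to different degrees. Grin3a had at least 1 UMI in 88.7% of somatostatin nuclei, Satb1 in 83.9%, Reln in 70.2%, Sox6 in 69.6% and Elfn1 in 63.8%. Grin3a encodes an NMDA receptor subunit, and Reln the secreted protein reelin. Crhbp was found in 45%, Lhx6 in 42.6% and Npy in 41.9%. Cort, which encodes the somatostatin-like peptide cortistatin, was found in 16.6%. Pooled CPM of Crhbp were 105 in somatostatin nuclei and 21.2 in the 6420 other inhibitory nuclei, those with at most 1 Sst UMI. For Elfn1 the pooled levels were 159 and 26 CPM, for Npy 141 and 27.6, for Grin3a 612 and 148, and for Satb1 312 and 114. Other genes of the marker lists were lower in somatostatin nuclei: Pnoc stood at 20.1 against 25.7 CPM, Nos1 at 28.8 against 38 CPM and Tacr1 at 11.7 against 16 CPM. Chrna2, a nicotinic receptor subunit known from oriens-lacunosum-moleculare cells, had only 9 UMIs in all and was at 0 in 9 libraries. These differences between classes follow in part from the choice of nuclei and were not tested.

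Depth differs between classes, so detection was also read with each nucleus thinned to 5000 UMIs, which left 1142 somatostatin nuclei and put out 78. Pvalb, Vip and Lamp5 nuclei are inhibitory nuclei with at least 3 UMIs of that gene and at most 1 UMI each of the other 3 genes among Sst, Pvalb, Vip and Lamp5. At that depth Crhbp was detected in 33.7% of somatostatin nuclei, in 27.1% of 133 Pvalb nuclei, in 0.418% of 239 Vip nuclei and in 0 of 331 Lamp5 nuclei, which allows a share of up to 0.906%. Npy was detected in 31% of somatostatin nuclei, 22.7% of Lamp5 nuclei and 2.26% of Pvalb nuclei. Elfn1 appeared in 47.8% of somatostatin nuclei and 36% of Vip nuclei, but in 3.01% of Pvalb and 0.604% of Lamp5 nuclei. Grin3a reached 80.3% against 9.02%, 40.6% and 42.3% in Pvalb, Vip and Lamp5 nuclei. Lhx6 was at 25% in somatostatin, 25.6% in Pvalb and 25.7% in Lamp5 nuclei. Oligodendrocyte nuclei were chosen by myelin transcripts, among them at least 1 UMI of Mog. They had no UMI of Gad1 or Gad2 and at most 1 of Slc17a7. They were taken for comparison as a class thought to lack these interneuron genes. Of the 18435 there were 796 deep enough, and they showed Crhbp in 0.503%, Npy in 0.377%, Lhx6 in 0.251% and Elfn1 in 2.26%. Several genes were not low there: Satb1 was detected in 24.4%, Sox6 in 19.7% and Grin3a in 16.7%. These shares exceeded those of Lamp5 nuclei for Satb1 (2.42%), of Vip nuclei for Sox6 (2.51%) and of Pvalb nuclei for Grin3a (9.02%). The oligodendrocyte share of these genes is therefore not a measure of free RNA alone, and what adds to it was not tested. Nos1 was detected in 6.13% of somatostatin and 6.16% of oligodendrocyte nuclei.

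**Figure D1:**
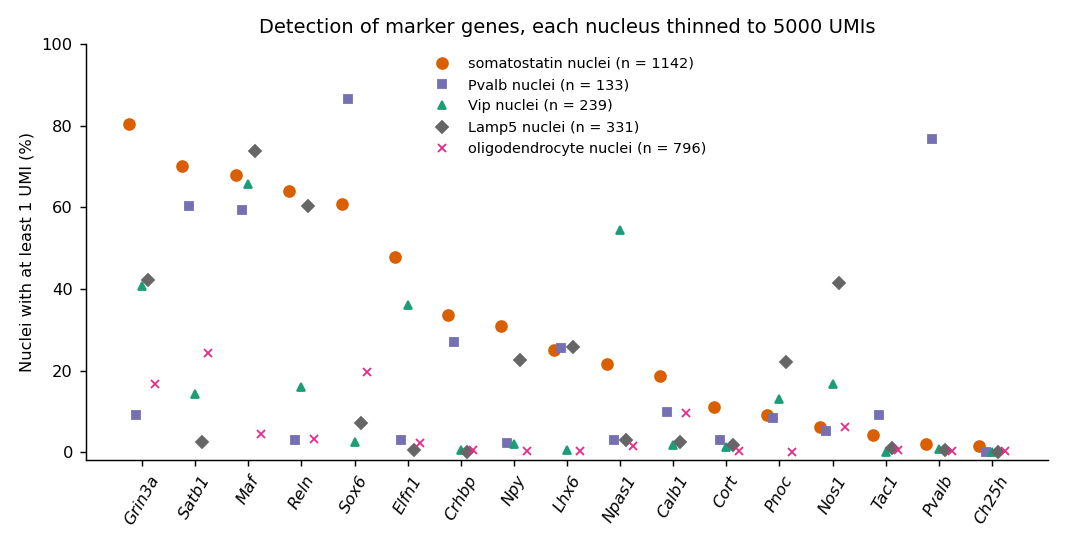
Share of nuclei with at least 1 UMI of each gene (y axis, percent) after thinning every nucleus to 5000 UMIs, in somatostatin nuclei (orange circles), Pvalb, Vip and Lamp5 nuclei and oligodendrocyte nuclei. Somatostatin nuclei are at 80.3% for Grin3a and 47.8% for Elfn1, and Sox6 is higher in Pvalb nuclei (86.5%) than in somatostatin nuclei (60.9%).

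Markers of other cells were summed per library. The rule capped Vip, Lamp5 and Slc17a7, so the levels of the lists that hold them follow in part from the choice of nuclei. The 8 markers of interneurons from the caudal ganglionic eminence (CGE), which include Vip, Lamp5 and Adarb2, summed to 66.3 to 516 CPM per library. The highest value belonged to Ch25h+/+ Tau+ replicate 4, where Adarb2 alone read 381 CPM, and the next highest library read 210 CPM. The pooled level of these 8 genes was 15.3% of that in free RNA, taken from barcodes with under 100 UMIs. The 6 excitatory markers summed to 177 to 344 CPM, the 6 astrocyte markers to 39.7 to 157 CPM, the 6 oligodendrocyte markers to 60.2 to 244 CPM and the 6 microglial markers to 80.2 to 141 CPM. The group ranges of each of these 4 lists overlapped in every pairing. Those of the CGE list did not overlap between the groups labelled Ch25h-/- Tau+ (85.5 to 91.6 CPM) and Ch25h-/- Tau- (126 to 210 CPM). The 3 markers of oligodendrocyte precursors summed to 3.41 to 51.7 CPM. The 3 endothelial markers summed to 0 to 1.39 CPM in the group labelled Ch25h-/- Tau+, below Ch25h+/+ Tau+ (2.06 to 7.89 CPM) and Ch25h+/+ Tau- (1.47 to 3.68 CPM). These sums rest on few UMIs: over all libraries Cldn5 had 1, Flt1 5 and Pecam1 27. Without any group effect, 4 against 4 libraries fail to overlap in a share of 0.0286 of arrangements. Each list was compared over every pair of groups, so a few such gaps can arise by chance. The part of these marker levels in the results was not tested. The 6 markers of parvalbumin interneurons summed to 1260 to 2850 CPM, 319% of free RNA when pooled, and most of this was Erbb4 (1660 CPM pooled), which other interneurons also express. Pvalb read 5.45 CPM in somatostatin nuclei against 246 CPM in Pvalb nuclei.

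The somatostatin nuclei were not uniform. Sox6, which acts downstream of Lhx6 in MGE interneurons, had 0 UMIs in 371 nuclei, 1 or 2 in 225 and 3 or more in 624. The median depth was 10764 UMIs in nuclei without Sox6, 7884 UMIs in those with 1 or 2, and 9962 UMIs in those with 3 or more. Nuclei without Sox6 occurred in all 16 libraries, at 15.7 to 43.5% of the somatostatin nuclei. This division by Sox6, and those below by other single genes, were chosen after the values had been seen and are described without a test.

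Nuclei without Sox6 had less Crhbp (39.5 against 142 CPM, pooled), less Calb1, the calcium buffer calbindin (12.9 against 92.2 CPM), and less Unc13c, a synaptic vesicle priming factor (6.2 against 123 CPM). Grin3a stood at 382 and 773 CPM and Reln at 471 and 775 CPM. Higher without Sox6 were Zfpm2, a zinc-finger cofactor of GATA factors (1060 against 644 CPM), the neuregulin receptor Erbb4 (2150 against 1260 CPM), and noncoding RNAs of chromosome 8. C130073E24Rik (8:50743291-50916997, GRCm38) read 1960 CPM without Sox6 and 518 CPM at 3 or more UMIs, Gm45321 1150 and 285 CPM, and Gm45323 624 and 167 CPM. Lhx6 (59.5 and 56.8 CPM), Elfn1 (164 and 161 CPM) and Gad2 (351 and 354 CPM) were close in both. Sst (645 against 837 CPM) and Satb1 (234 against 356 CPM) were lower without Sox6, and Meis2 (85.2 against 12.4 CPM) was higher. Nuclei with 1 or 2 Sox6 UMIs lay between for C130073E24Rik (1110 CPM), Crhbp (120 CPM) and Grin3a (564 CPM). They lay outside both ends for Sst (892 CPM), Gad2 (406 CPM), Elfn1 (138 CPM) and Lhx6 (55.2 CPM). The rule used Sst and Gad2, so their levels follow in part from the choice of nuclei.

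**Figure D2:**
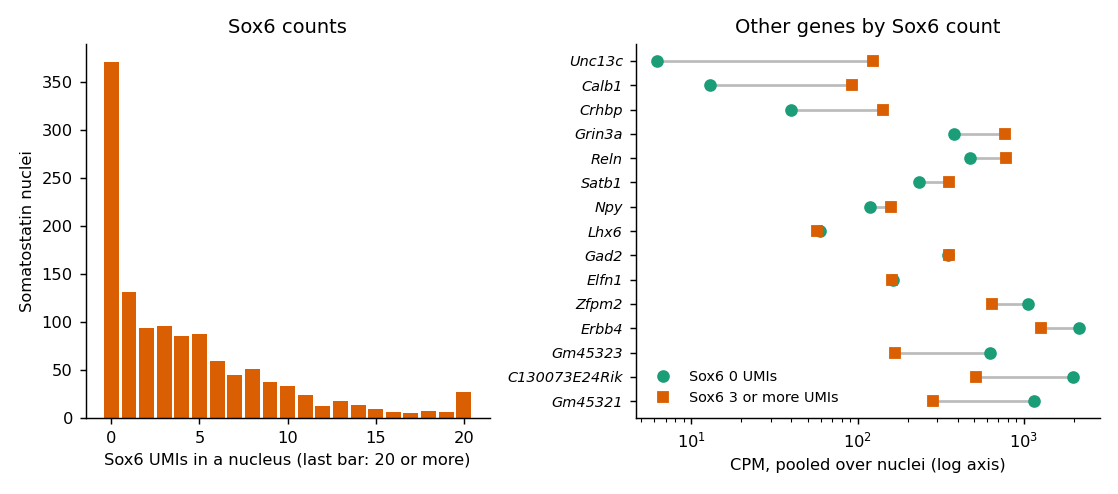
Left, number of somatostatin nuclei (y axis) by Sox6 UMIs (x axis, last bar 20 or more). Right, pooled CPM (log axis) of other genes in nuclei with 0 Sox6 UMIs (green circles) and with 3 or more (orange squares); Unc13c, Calb1 and Crhbp are lower, and Gm45323, C130073E24Rik and Gm45321 higher, where Sox6 is at 0.

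Other single genes divided the nuclei further. In 23 nuclei from 11 libraries Nos1 had 3 or more UMIs. Their Npy stood at 967 CPM against 125 CPM in the remaining nuclei, Tacr1, the substance P receptor, at 408 against 4.01 CPM, and Chodl at 104 against 0.0772 CPM. Reln (120 against 650 CPM) and Elfn1 (55.9 against 161 CPM) were lower there. Nos1, Npy, Tacr1 and Chodl are together known as markers of long-range somatostatin neurons, and the median depth of the set (9901 UMIs) was near that of the rest (9867 UMIs). Reln had 0 UMIs in 363 nuclei and 3 or more in 692. Where Reln was at 0, Erbb4 stood at 3500 CPM against 857 CPM, and Cort at 64.2 against 20.7 CPM. In 33 nuclei from 12 libraries Meis2 had 3 or more UMIs. Scrublet marked 11 of them, their median was 14192 UMIs, and Sst (416 CPM), Lhx6 (18.4 CPM) and Nxph1 (991 CPM against 2930 CPM in the rest) were low. The rule used Sst, so its level there follows in part from the choice of nuclei.

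Somatostatin nuclei made up 9.53 to 20.1% of the inhibitory nuclei of a library, and 0.489 to 1.2% of all nuclei. In Ch25h+/+ the share of inhibitory nuclei was 15.5 ± 2.09% with Tau+ and 14.3 ± 3.53% with Tau- (SD, n = 4 each). In the libraries labelled Ch25h-/- it was 14.2 ± 2.61% with Tau+ and 17.7 ± 2.4% with Tau-. The 95% exact binomial interval of a single library, which covers counting error only, ran from 7.3 to 12.2% for the lowest library and from 16.9 to 23.7% for the highest. The groups overlapped in every pairing. Tau+ minus Tau- was 1.18 percentage points in Ch25h+/+ (two-sided exact permutation p = 0.657) and -3.51 points in the libraries labelled Ch25h-/- (exact permutation p = 0.143). The difference over both genotypes was -1.16 points (exact permutation p = 0.434). Libraries labelled Ch25h-/- minus Ch25h+/+ gave -1.34 points in Tau+ (exact permutation p = 0.486), 3.34 points in Tau- (exact permutation p = 0.143) and 1 point over both (exact permutation p = 0.511). None of these 6 tests passed after Benjamini-Hochberg adjustment, where the lowest value was 0.429. The smallest p that 4 against 4 libraries allow is 0.0286. The signs of some differences turned. With each nucleus thinned to 2000 UMIs, which left 8 to 19 somatostatin nuclei per group, tau over both read 0.783 points and Ch25h loss over both -0.625 points. Tau in Ch25h+/+ read -0.426 points without Ch25h+/+ Tau- replicate 2. With each nucleus thinned to 5000 UMIs the shares were 9.85, 9.85, 8.44 and 11.6% in the order of the groups above. Of the nuclei with at least 3 UMIs of Gad1 and Gad2 together, 186, 366, 168 and 246 were left out as too shallow. The rule was applied anew to the thinned counts, which left 106, 109, 92 and 140 somatostatin nuclei.

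**Figure D3:**
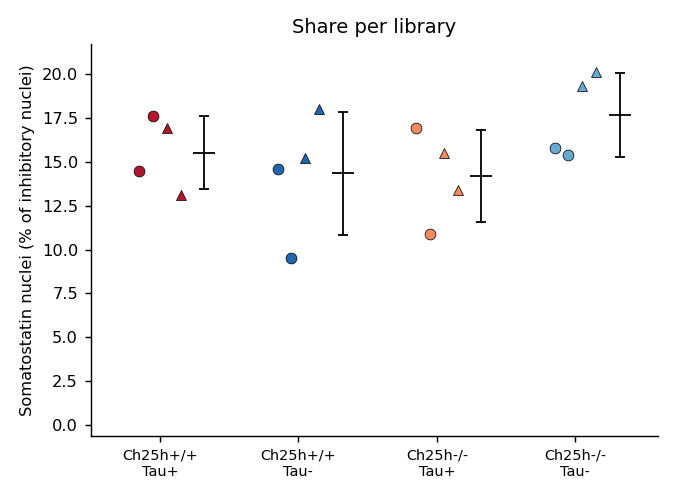
Somatostatin nuclei as a percentage of inhibitory nuclei (y axis) in each library, by group; circles are replicates 1 and 2, triangles replicates 3 and 4, and the bar gives the mean and SD. The groups overlap, with means of 14.2 to 17.7%.

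Few genes were called between Tau+ and Tau- in these nuclei. UMIs were summed over the somatostatin nuclei of each library, so that the mouse is the replicate, and 9608 genes were tested with edgeR's quasi-likelihood test. The noncoding RNAs Gm43049 and Gm32754 and the prion protein gene Prnp were higher in Tau+ over both genotypes. The labels do not name the tau line, so tau and any other difference between Tau+ and Tau- mice cannot be told apart, here and in every tau effect given. These 3 were 0.0312% of the genes tested (adjusted p under 0.05), and all 3 were higher in Tau+. An unadjusted p under 0.05 was found for 561 genes (5.84%), near the share that this cutoff gives without any effect. Within Ch25h+/+ and within the libraries labelled Ch25h-/- the count was 2 each (0.0208% of the genes), Gm43049 and Gm32754 in both. DESeq2 called 4 genes over both genotypes and 2 within each. With replicates 3 and 4 alone edgeR called 18 genes over both genotypes, 11 within Ch25h+/+ and 21 within the libraries labelled Ch25h-/-. In that order the counts were 1, 2 and 1 with replicates 1 and 2 alone, and 28, 5 and 27 without the filter on low counts.

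Gm43049 (3:140692038-140760704, GRCm38, minus strand) is a long intergenic noncoding RNA with no function given in the annotation. It had 59, 136, 75 and 80 UMIs in the libraries of Ch25h+/+ Tau+ and 90, 126, 77 and 85 in those labelled Ch25h-/- Tau+. All 8 Tau- libraries had 0. The groups do not overlap, and the Tau+ libraries read 78.6 to 161 CPM. Set against 3 counts summed over the group as the floor, Gm43049 was at least 92-fold higher in Tau+ within Ch25h+/+ (edgeR, adjusted p = 7.38e-06) and at least 157-fold higher within the libraries labelled Ch25h-/- (edgeR, adjusted p = 7.41e-07). Over both genotypes it was at least 244-fold higher (edgeR, adjusted p = 1.52e-08). With replicates 1 and 2 alone the call within a single genotype was lost (edgeR, adjusted p = 0.218 and 0.111). The other inhibitory nuclei held 2241 UMIs of it in Tau+ and 6 in Tau-, and free RNA 55.9 CPM and 0.0331 CPM.

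Gm32754 (3:140904998-140917459, minus strand) lies beside it on chromosome 3. The Tau+ libraries held 11, 13, 11 and 14 UMIs of it in Ch25h+/+ and 8, 3, 16 and 10 where labelled Ch25h-/-. All 8 Tau- libraries held 0. It was at least 28.8-fold higher in Tau+ over both genotypes (edgeR, adjusted p = 0.00012), on a mean of 5.38 UMIs per library. Within 1 genotype its call was lost when single libraries were left out. In Ch25h+/+ this held for each of the 8 libraries and for Ch25h-/- Tau+ replicate 4, with an edgeR adjusted p of up to 0.204 over the alternatives. In the libraries labelled Ch25h-/- it held for Tau+ replicates 3 and 4 and Tau- replicates 1, 3 and 4 (edgeR adjusted p up to 0.136). Another noncoding gene of the same stretch, 4930590L14Rik (3:140951876-140953247), had 16 UMIs in Tau+ and 0 in Tau-, too few for the test, and was at least 5.37-fold higher against the same floor.

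Prnp encodes the prion protein, a glycoprotein of the neuronal surface. It read 75.9, 85.3, 100 and 106 CPM in Ch25h+/+ Tau+, and 78.1, 79.5, 92.6 and 85.8 CPM in Tau+ labelled Ch25h-/-. In Tau- it read 52.3, 33.2, 58.9 and 47 CPM in Ch25h+/+, and 44, 50.9, 69.2 and 73.9 CPM in those labelled Ch25h-/-. Every Tau+ library lay above every Tau- library. The log2 fold change over both genotypes was 0.70 (SE 0.13, edgeR adjusted p = 0.0342). It was 0.94 (SE 0.19, edgeR adjusted p = 0.105) within Ch25h+/+ and 0.46 (SE 0.18, edgeR adjusted p = 0.931) within the libraries labelled Ch25h-/-. With the replicate split as an added term, Prnp passed within Ch25h+/+ (log2 0.95, SE 0.16, edgeR adjusted p = 0.00665). It also passed there without the filter on low counts (0.00596) and in nuclei with Lhx6, Sox6 or Satb1 (0.046). The call is near its limit: it was lost in 15 of 27 alternatives, 12 of which leave out 1 library (edgeR adjusted p up to 0.22), while the log2 fold change stayed between 0.64 and 0.81. Of the 16 libraries, the call held only without Ch25h+/+ Tau+ replicate 1, Ch25h+/+ Tau- replicate 3, or replicate 3 or 4 of those labelled Ch25h-/- Tau-. Free RNA, in which Prnp is abundant, read 412 CPM in Tau+ and 391 CPM in Tau-, so it differed in the same direction as the nuclei. Its part in the Prnp difference was not tested. Mapt, the mouse tau gene, read 363 ± 27.4 CPM (SD, n = 4) in Ch25h+/+ Tau+ and 397 ± 51.1 CPM in Ch25h+/+ Tau-. In the groups labelled Ch25h-/- it read 405 ± 51.1 CPM in Tau+ and 376 ± 46.7 CPM in Tau-. The log2 difference of Mapt over both genotypes was -0.01 (SE 0.09, edgeR adjusted p = 0.998).

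Unc5c (3:141465216-141834924), a netrin receptor that guides axons, lies next along chromosome 3 after these noncoding genes among the genes named here. In somatostatin nuclei, in CPM without TMM scaling, the 4 Tau+ libraries of Ch25h+/+ read 659, 445, 536 and 635, and the 4 Tau- libraries 829, 644, 761 and 663. The libraries labelled Ch25h-/- read 606, 597, 691 and 704 in Tau+, against 864, 1100, 565 and 585 in Tau-. On this scale Tau+ and Tau- overlapped in both genotypes. With TMM scaling Unc5c read 466 to 668 CPM in Tau+ and 672 to 843 CPM in Tau- of Ch25h+/+, without overlap, and the libraries labelled Ch25h-/- still overlapped. In other inhibitory nuclei the same libraries read 546 to 761 CPM in Tau+ and 1140 to 1730 CPM in Tau-, without overlap. The log2 tau effect over both genotypes was -0.32 in somatostatin nuclei (SE 0.12, edgeR adjusted p = 0.83) and -1.10 in other inhibitory nuclei (edgeR adjusted p = 9.3e-07). In somatostatin nuclei it ran from -0.58 in replicates 1 and 2 alone to -0.03 in replicates 3 and 4 alone. Within the libraries labelled Ch25h-/- the alternatives ran from -0.73 to 0.30, and the sign turned in replicates 3 and 4 alone. In the test of the difference itself, with the library as a block, the effect in somatostatin nuclei was 0.80 higher on the log2 scale (SE 0.18). Its unadjusted edgeR p of 0.000628 became 0.725 after adjustment over 13264 genes, so the difference did not pass. The level in Tau+ was near that of other inhibitory nuclei (569 ± 98.3 and 676 ± 68.9 CPM in Ch25h+/+), and in Tau- it was lower (724 ± 86.7 and 1360 ± 229 CPM, SD, n = 4). The other inhibitory nuclei mix classes that differ in Unc5c. Pooled over all libraries it read 2680 CPM in Lamp5, 431 CPM in Pvalb and 366 CPM in Vip nuclei, against 661 CPM in somatostatin nuclei. The part of this mixture in the comparison was not tested.

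**Figure D4:**
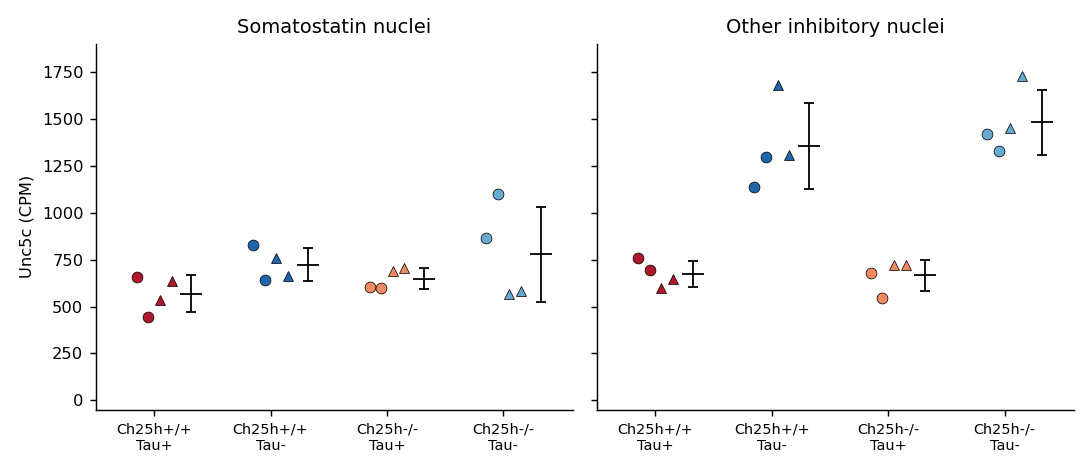
Unc5c CPM (y axis) in somatostatin nuclei (left) and other inhibitory nuclei (right) of each library by group; circles are replicates 1 and 2, triangles replicates 3 and 4, bars mean and SD. Tau- libraries reach 1140 to 1730 CPM in other inhibitory nuclei and 565 to 1100 CPM in somatostatin nuclei.

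With all libraries, no gene's tau effect passed the test of its difference from other inhibitory nuclei (edgeR, 0% of 13264 genes, lowest adjusted p 0.184). An unadjusted p under 0.05 was found for 698 genes (5.26%), near the share that this cutoff gives without any effect. The count of genes that passed was 108 in replicates 3 and 4 alone, 0 in replicates 1 and 2 alone, and 25 without the filter on low counts. The smallest p values belonged to Wipf3, an actin regulator (log2 difference -0.64, SE 0.14), Enpp5 (0.67, SE 0.14) and Trpc4, a cation channel (-0.44, SE 0.10). Prnp differed by -0.03 (SE 0.12), with log2 tau effects of 0.70 in somatostatin and 0.76 in other inhibitory nuclei. Below Prnp, the genes with the smallest p for tau over both genotypes, among those averaging at least 10 UMIs per library, did not pass the edgeR test. They were Gm19667, an antisense RNA of chromosome 9 (log2 -1.03, SE 0.21, adjusted p = 0.0702), the interferon receptor subunit Ifnar2 (0.99, SE 0.22, adjusted p = 0.231), the matrix protein gene Abi3bp (-1.35, SE 0.32, adjusted p = 0.382), Fam124a (-0.78, SE 0.19, adjusted p = 0.426) and Prdm16, a zinc-finger regulator (1.83, SE 0.44, adjusted p = 0.533). Gm19667 passed in edgeR with the replicate split as an added term (adjusted p = 0.0456), without Ch25h-/- Tau- replicate 3 (0.03) and without the filter on low counts (0.000495), and in DESeq2 (0.0312). Ifnar2 passed in edgeR without Ch25h+/+ Tau- replicate 4 (log2 1.3, adjusted p = 0.0279). Abi3bp (adjusted p = 0.00349) and Prdm16 (1.65e-05) passed in edgeR without the filter, and Prdm16 also in replicates 3 and 4 alone (0.00301). Gm19667 read 3.73 to 26.5 CPM in Tau+ and 23.9 to 47.4 CPM in Tau-, which overlap. Within the libraries labelled Ch25h-/-, Unc5d, another netrin receptor, was -0.53 (SE 0.12, adjusted p = 0.429), and it passed in edgeR without the filter (0.00203).

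With all libraries and the filter on low counts, the loss of Ch25h gave no call in the test across genes. The libraries labelled Ch25h-/- and Ch25h+/+ differed in 0 of 9608 genes in Tau+, 0 in Tau- and 0 over both tau states by edgeR (0%), and in 0 by DESeq2. Unadjusted p values under 0.05 numbered 309, 320 and 285 (3.22, 3.33 and 2.97% of the genes), and all adjusted p values were 1. The difference between the tau effects of the 2 genotypes was called in 0 genes (0%) as well, with 349 unadjusted p values under 0.05 (3.63%). For Ch25h loss in Tau+, in Tau- and over both, edgeR called 9, 6 and 4 genes in replicates 3 and 4 alone. The counts were 0, 4 and 1 in replicates 1 and 2 alone, and 1, 1 and 6 without the filter. In simulated counts of the same depth, with 9410 genes tested, changes were placed only in genes averaging at least 10 UMIs per library. There 77 of 100 genes changed 2-fold and 98 of 100 changed 4-fold were recovered for the tau effect over both genotypes, with 8 false calls. For 4 against 4 libraries, simulated as the tau effect in Ch25h+/+, 57 and 96 of 100 were recovered, with 6 false calls. No change was simulated in genes below that mean or for Ch25h loss. The 100 genes of each fold change were in the same simulated counts, many more than the real contrasts called. With more changed genes the adjustment is less strict, so these recoveries may be higher than those in the real contrasts. Among genes averaging at least 10 UMIs per library, the smallest p values over both tau states belonged to Gm16638 (log2 0.82, SE 0.21), the phosphodiesterase gene Pde1c (-0.45, SE 0.12), the fatty acid binding protein gene Fabp5 (-0.93, SE 0.26), Arhgap15 (0.42, SE 0.12) and Pkib (-1.04, SE 0.29). The groups overlapped for each of these 5. No gene's Ch25h effect passed the test of its difference from other inhibitory nuclei (edgeR, 0%, lowest adjusted p 0.727). There were 534 unadjusted p values under 0.05 (4.03%). The count of genes that passed was 3 in replicates 3 and 4 alone, 1 in replicates 1 and 2 alone, and 5 without the filter.

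Ch25h itself (19:34473778-34475164, minus strand) was below the filter of that test and was read on its own. Somatostatin nuclei held 35 of its 344 UMIs over all nuclei, 10.2%, while they held 1.43% of all UMIs. Its pooled level was 2.65 CPM (95% exact Poisson interval 1.85 to 3.68, counting error only), against 0.563 CPM in other inhibitory nuclei (0.392 to 0.782) and 1.36 CPM in free RNA. Pvalb and Vip nuclei held none, which allows up to 1.54 and 1.27 CPM at 3 counts. Lamp5 nuclei read 0.258 CPM and excitatory nuclei 0.196 CPM. The UMIs came from 27 nuclei in 14 libraries. Cort stood at 138 CPM in those 27 nuclei and at 35.9 CPM over all somatostatin nuclei. After thinning to 5000 UMIs Ch25h was detected in 1.4% of somatostatin nuclei, 0.251% of oligodendrocyte nuclei and none of the Pvalb, Vip and Lamp5 nuclei, which allows shares of up to 2.26, 1.26 and 0.906%. Without thinning the share was 2.21% in somatostatin and 0.0759% in oligodendrocyte nuclei, at median depths of 9868.5 and 1736 UMIs.

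Within somatostatin nuclei Ch25h followed the genotype label in part. The UMIs were 2, 4, 4 and 2 in Ch25h+/+ Tau+ and 4, 1, 2 and 5 in Ch25h+/+ Tau-. They were 1, 1, 2 and 0 in the libraries labelled Ch25h-/- with Tau+ and 1, 1, 5 and 0 in those with Tau-. The level was 3.94 ± 1.49 CPM in the 8 Ch25h+/+ libraries and 1.54 ± 1.44 CPM (SD) in the 8 labelled Ch25h-/-, with overlap. The difference of -2.4 CPM had a two-sided exact permutation p of 0.00939 (0.0102 adjusted over 3 tests, which were chosen after the values had been seen). With Sst at 5 or more UMIs the exact permutation p was 0.0665. In other inhibitory nuclei Ch25h stood at 0.53 CPM in Ch25h+/+ and 0.593 CPM in the libraries labelled Ch25h-/-. The genotype difference in somatostatin nuclei less that in other inhibitory nuclei was -2.31 CPM (exact permutation p = 0.0102). Over all nuclei the order was the opposite, 0.33 and 0.413 CPM. The libraries labelled Ch25h-/- still held 11 UMIs of the targeted gene in 6 of 8 libraries, so genotypes are taken from the labels throughout. Their pooled level of 1.57 CPM (95% exact Poisson interval 0.783 to 2.81) was not separated from free RNA of the same libraries, at 1.11 CPM (0.761 to 1.57). Free RNA of the Ch25h+/+ libraries read 1.61 CPM (1.18 to 2.16), so it differed in the same direction, and its part in the genotype difference was not tested.

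Gm26902 (19:34474808-34481546, plus strand), a noncoding RNA that shares the promoter region of Ch25h and overlaps it on the opposite strand, separated the labels in CPM. Its UMIs were 3, 2, 3 and 3 in Ch25h+/+ Tau+ and 3, 1, 4 and 7 in Ch25h+/+ Tau-. They were 1, 0, 1 and 1 in the libraries labelled Ch25h-/- with Tau+ and 0, 1, 0 and 0 in those with Tau-. The lowest Ch25h+/+ library (2.07 CPM) lay above the highest of the others (1.86 CPM). Each of these 2 libraries held 1 UMI, so their order rests on library size. The difference of -3.61 CPM had an exact permutation p of 0.000408 (0.00122 adjusted), the smallest that 4900 arrangements give. Other inhibitory nuclei read 3.02 CPM in Ch25h+/+ and 0.499 CPM in the libraries labelled Ch25h-/-. How strand was treated in the counting is not given in the sources used here, so UMIs from the overlap of the 2 genes cannot be told apart.

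**Figure D5:**
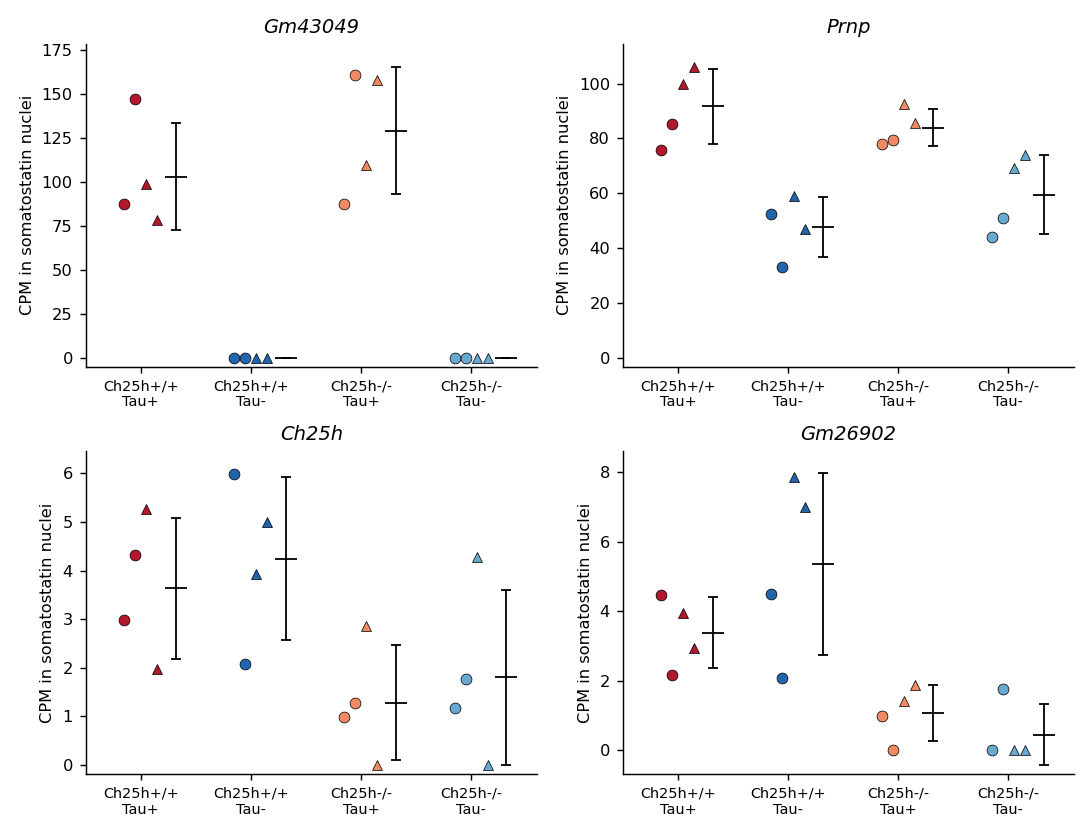
CPM in the somatostatin nuclei of each library (y axis) for Gm43049, Prnp, Ch25h and Gm26902, by group; circles are replicates 1 and 2, triangles replicates 3 and 4, bars mean and SD. Gm43049 is at 0 in all Tau- libraries, and Prnp lies at 75.9 CPM or more in Tau+ and 73.9 CPM or less in Tau-. In CPM Gm26902 is lower in each library labelled Ch25h-/- than in each Ch25h+/+ library. The lowest Ch25h+/+ library and the highest of the others held 1 UMI of it each.

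Peptide, transcription factor and receptor genes known from these neurons gave no call by tau or by Ch25h loss where tested. Of 35 genes followed whatever their values, among them Mapt, Unc5c and the genes called above, 24 passed the filter on low counts. The 3 of these called by tau were Gm43049, Gm32754 and Prnp, and none was called by Ch25h loss. The list was chosen with earlier results of these data known. Over all genes tested the calls were 0.0312% for tau over both genotypes and 0% for Ch25h loss. The lack of a call among the remaining genes therefore says nothing particular of them. Crhbp read 110 ± 22.8 CPM in Ch25h+/+ Tau+, 138 ± 20.1 in Ch25h+/+ Tau-, 99.8 ± 11.9 in Ch25h-/- Tau+ and 96.6 ± 26.2 in Ch25h-/- Tau- (SD, n = 4), and its log2 change with Ch25h loss over both tau states was -0.34 (SE 0.13, edgeR adjusted p = 1). Npy, the peptide neuropeptide Y, varied within groups more than between them, from 78.6 to 250 CPM in Ch25h+/+ Tau+ and from 112 to 263 CPM in Ch25h+/+ Tau-. Cort had group means of 41.3, 44.5, 18.9 and 41.2 CPM with SDs of 25.4, 22.5, 9.97 and 18.5. Grin3a means ran from 605 to 638 CPM, Elfn1 from 153 to 172 CPM and Reln from 605 to 705 CPM. The log2 tau effects over both genotypes of these 3 lay between -0.06 and 0.13. Tac1, the substance P precursor, had means of 7.82 and 26.6 CPM in Ch25h+/+ Tau+ and Tau- with SDs of 8.21 and 15.5. In the groups labelled Ch25h-/- the order was the opposite, with 14.4 CPM in Tau+ and 10.9 CPM in Tau- (SDs 4.13 and 5.17). The 11 untested genes included all 4 somatostatin receptors followed, with 69 UMIs of Sstr1, 37 of Sstr2, 11 of Sstr3 and 5 of Sstr4, and the peptide genes Pdyn (57 UMIs) and Penk (23 UMIs).

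Gene lists were read by their counts and medians, beside a median of 0.00 over all genes for each contrast. None of the 131 genes tested from the 10 lists was called by tau or by Ch25h loss over both states. Over all genes tested the calls were 0.0312% and 0%, so these counts say nothing particular of the lists. MGE and inhibitory transcription factors had 20 of 22 members tested, with a median log2 tau effect of -0.02 and a median Ch25h effect of 0.10. Genes of GABA release and uptake had 15 of 16 tested (medians -0.04 and -0.03). This list holds Gad1 and Gad2, which the rule used. Genes of glutamate input had 20 of 22 tested (0.03 and 0.02) and firing genes 19 of 20 (-0.04 and 0.02). All 21 wiring genes were tested, with a median tau effect of -0.14 and only 3 of the 21 above 0. Below 0 were Unc5c, Unc5d (-0.28, SE 0.09) and the teneurin Tenm4 (-0.28, SE 0.09), at adjusted p values of 0.83 each by edgeR. Neuropeptides and their receptors had 11 of 22 tested (medians -0.13 and 0.03). The neuropeptide list holds Sst, which the rule used as well. Targets of SREBP2, the regulator of cholesterol synthesis, had 12 of 20 tested (-0.14 and -0.04). Immediate early genes, which follow neuronal activity, had 7 of 14 tested, with a median tau effect of -0.27 and a median Ch25h effect of -0.47, all 7 below 0 for Ch25h loss and none called. Of 20 interferon-stimulated genes 19 were in the files and 3 were tested. None of these 3 was called.

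A list of 5 noncoding RNAs of chromosome 8, which holds C130073E24Rik, Gm45321 and Gm45323, had 4 members tested. Within the libraries labelled Ch25h-/- their log2 tau effects ran from -0.89 to -0.68 (median -0.70, adjusted p of 0.787 or more by edgeR), and within Ch25h+/+ from -0.40 to 0.05. C130073E24Rik read 955 ± 259 CPM in Ch25h+/+ Tau+, 925 ± 332 in Ch25h+/+ Tau-, 918 ± 188 in Ch25h-/- Tau+ and 1470 ± 264 in Ch25h-/- Tau- (SD, n = 4). The lowest library of the last group (1230 CPM) lay above all 4 of Ch25h-/- Tau+ (744 to 1180 CPM). The share of somatostatin nuclei without Sox6 was 27.8 ± 1.62, 30.4 ± 3.35, 27.6 ± 4.09 and 33.5 ± 12.2% in the same order of groups. Its part in these levels was not tested.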

How the data were processed

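UMI counts per gene and barcode were deposited by the authors for 16 libraries of hippocampal nuclei. Per the file headers Cell Ranger 4 wrote the matrices, while the submitters' processing notes name Cell Ranger 3.1.0, Seurat and mm10. Barcodes with at least 500 UMIs, 300 genes and at most 5% mitochondrial UMIs were taken as nuclei, and doublets were scored with Scrublet (scanpy 1.11.5; top 0.8% per 1000 nuclei) but kept. The nuclei of interest were chosen by the thresholds given in the text, and their counts were summed per library. Groups come from the labels. Replicates are numbered in accession order, which pairs nothing. No label names separate litters or preparation days.

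edgeR 4.0.16 (R 4.3.3) fitted 1 mean per group (TMM, filterByExpr, robust quasi-likelihood) for 7 contrasts, with Benjamini-Hochberg adjustment over 9608 genes. DESeq2 1.42.0 was an alternative. Effects were set against other inhibitory nuclei in a fit with the library as a block. Shares were compared by exact permutation. The gene test was tested on simulated data. Coordinates are from GENCODE M21.

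Named genes are called genes whose libraries do not overlap and average 10 or more UMIs (up to 8 per direction), the 5 with the smallest p where fewer than 5 passed, and 35 listed genes. The nuclei, lists and rules were chosen with earlier results of these data known. Some genes of these lists are not reported here.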

Additional observations from a re-analysis of the deposited data

Results flagged for a closer look

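In 92 groups of 4 libraries, over the share of inhibitory nuclei and the followed genes with at least 10 UMIs per library, 3 held a library that stood far from the other 3 (gap over range above Dixon's 95% critical value). Chance flags about 1 in 20 groups, so 3 of 92 is no more than chance gives. Elfn1 read 204 CPM in Ch25h-/- Tau+ replicate 2 and 148 to 151 CPM in the other 3. Pnoc, which encodes the precursor of nociceptin, read 37.4 CPM in Ch25h+/+ Tau- replicate 1 against 15.7 to 18.7 CPM. Nos1 read 66.7 CPM in Ch25h-/- Tau- replicate 2 against 10.1 to 18.5 CPM.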

How the results depend on the processing

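No paired analysis was possible because the labels give no replicate numbers to pair libraries across groups (the block in the comparison with other inhibitory nuclei pairs nuclei of 1 library). Counts of called genes follow the order tau within Ch25h+/+, within Ch25h-/- labels, and over both, Ch25h loss in Tau+, in Tau-, over both, and the interaction. They were 2, 2, 3, 0, 0, 0 and 0. Without the filter on low counts (22852 genes) they were 5, 27, 28, 1, 1, 6 and 2, with 25 and 5 genes whose tau and Ch25h effects differed from other inhibitory nuclei. With replicates 1 and 2 alone they were 2, 1, 1, 0, 4, 1 and 2 (differences 0 and 1), and with replicates 3 and 4 alone 11, 21, 18, 9, 6, 4 and 8 (differences 108 and 3). The fit of only the compared groups, and the removal of Scrublet doublets, each left 1 gene for tau in Ch25h+/+. At 5 or more Sst UMIs the 3 tau contrasts had 1 gene each. Leaving out each library in turn gave 1 to 2, 1 to 3 and 2 to 4 genes for the tau contrasts, 0 for the others, and 0 to 1 for the tau difference from other inhibitory nuclei. Single replicate pairs hold fewer libraries. For these counts the cause was not tested. The split into replicates 1 and 2 against 3 and 4 as an added term, which pairs no libraries, gave 3, 2 and 4 genes for the tau contrasts and 0 for the others. RLE scaling changed no count. All somatostatin nuclei had at least 1000 UMIs. The share difference for tau in Ch25h+/+ was -0.000162 points after thinning to 5000 UMIs (added after seeing the data), and -0.426 to 2.4 points leaving out each library, below 0 without Ch25h+/+ Tau- replicate 2. Thinning to 2000 UMIs, which left 8 to 19 members per group, gave 0.783 points for tau over both and -0.625 for Ch25h loss over both. No share alternative passed. Unc5c within the libraries labelled Ch25h-/- was 0.30 (log2) in replicates 3 and 4 alone.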
